A study of Mus musculus with 12 samples.

Results

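Transcripts of 3 members of the serpin family were followed: Serping1, which encodes C1 inhibitor, and Serpinb6a and Serpinb8, which encode serpins of clade B. They are 3 of the 420 genes listed for a targeted panel of mouse extracellular matrix (ECM) and cell adhesion transcripts. The members were chosen by their symbols with the values of these libraries already known, so their fold changes are given as a description with standard errors and without p-values.

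RNA was taken from mouse pancreatic stellate cells (PSCs), the fibroblast-like cells of the pancreas that turn into matrix-producing myofibroblasts, either PKN2 WT or PKN2 KO on a C57BL/6 background. Cells received vehicle (labelled Control) or 5 ng/ml TGF-β1, and RNA was harvested after 72 h. The 12 libraries form 4 groups of 3 (WT vehicle, WT TGF-β1, PKN2 KO vehicle and PKN2 KO TGF-β1), and the labels letter them A, B and C within a group. The comparisons ask what the loss of PKN2, a protein kinase, and the exposure to TGF-β1 do to each transcript.

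By the study's methods the PSCs came from the pancreas of a single male mouse that carried a tamoxifen-inducible Cre recombinase at Rosa26 and floxed PKN2 alleles, and they were immortalized with SV40 large T antigen. Both genotypes share this background, and PKN2 was deleted by a short exposure of the cells to 4-hydroxytamoxifen. Whether the WT cells also received 4-hydroxytamoxifen is not given in the sources used here. The series text speaks of several lines per genotype and the methods of 1 mouse, so the p-values printed for other genes measure the spread between these libraries, which may be that between cultures of one origin.

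Serpins are proteins that present a reactive loop to a protease and trap the enzyme that cuts it in an inactive complex. C1 inhibitor is secreted and restrains the complement proteases C1r and C1s as well as plasma kallikrein and factor XIIa. Clade B serpins mostly stay inside the cell. Serpinb6a is a mouse counterpart of human SERPINB6, an inhibitor of cathepsin G and trypsin-like proteases, and the human counterpart of Serpinb8 inhibits furin, the protease that matures many secreted precursors.

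The panel's total ranged from 1074095 to 1473153 counts per library, and 77 of the 420 genes had no count in any library. Values are normalized counts, that is, counts divided by 1 factor per library that the authors derived from reference genes. In all 4 groups the library lettered B had the largest factor for its total, 0.924 to 1.06 per 1000000 counts, against 0.581 to 0.876 in libraries A and C. Results that move without the 4 B libraries are therefore given both ways. The 7 fibroblast or stellate markers on the panel summed to between 227010 and 508796 normalized counts. Among them Lum reached at most 4.93 and Dcn at most 55.1 in a library. All 6 epithelial markers together reached at most 23.3. Pkn2 is not on the panel, so the deletion itself could not be examined, and in these bulk cultures fewer cells of a type and less RNA per cell cannot be told apart.

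Serping1 (ENSMUSG00000023224; GRCm38 chromosome 2, 84765387 to 84775444, minus strand) stood higher in PKN2 KO PSCs than in WT PSCs under both treatments, and lower after TGF-β1 in both genotypes. In WT vehicle libraries A, B and C its normalized counts were 224.2, 97.97 and 174.5. In PKN2 KO vehicle they were 519.2, 393.6 and 437.7. After TGF-β1 the WT libraries held 30.7, 32.4 and 31.7. The 3 PKN2 KO libraries with TGF-β1 held 259.9, 135.8 and 148.9. The PKN2 KO vehicle libraries were thus the highest of the 12 and the WT TGF-β1 libraries the lowest, while PKN2 KO TGF-β1 overlapped with WT vehicle.

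Mean Serping1 was 165.6 ± 63.6 (SD, n = 3) in WT vehicle and 31.6 ± 0.866 in WT TGF-β1. The PKN2 KO means were 450.2 ± 63.7 in vehicle and 181.5 ± 68.2 after TGF-β1. In rising order the groups were WT TGF-β1, WT vehicle, PKN2 KO TGF-β1 and PKN2 KO vehicle, and only the middle pair did not differ beyond its spread (a gap of 16.0 between the means against an SD of 68.2). The WT TGF-β1 values rest on 26 to 41 counts per library. Their coefficient of variation of 2.74% is below the 17.5% that counting error alone gives at this depth, so the small SD of that group understates its error. In the other groups Serping1 had between 122 and 557 counts.

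On the scale of log2(normalized count + 1), which understates the change of low genes, the Serping1 difference between PKN2 KO and WT was 1.51 (standard error 0.31, 95% interval 0.84 to 2.17) in vehicle and 2.42 (standard error 0.31, 95% interval 1.76 to 3.09) after TGF-β1. These are 2.84-fold and 5.37-fold. Ordered from the highest fold change, Serping1 stood at place 10 of the 238 genes tested in vehicle and at place 3 after TGF-β1. TGF-β1 against vehicle gave -2.27 (95% interval -2.94 to -1.61) in WT PSCs and -1.36 (95% interval -2.02 to -0.69) in PKN2 KO PSCs. That is 4.83-fold and 2.56-fold lower with TGF-β1. The difference between the 2 TGF-β1 effects, the interaction, was 0.92 (95% interval -0.02 to 1.86), and it was 1.35 without the B libraries. The 2 genotype and the 2 TGF-β1 comparisons share libraries and are not independent of each other.

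**Figure D1:**
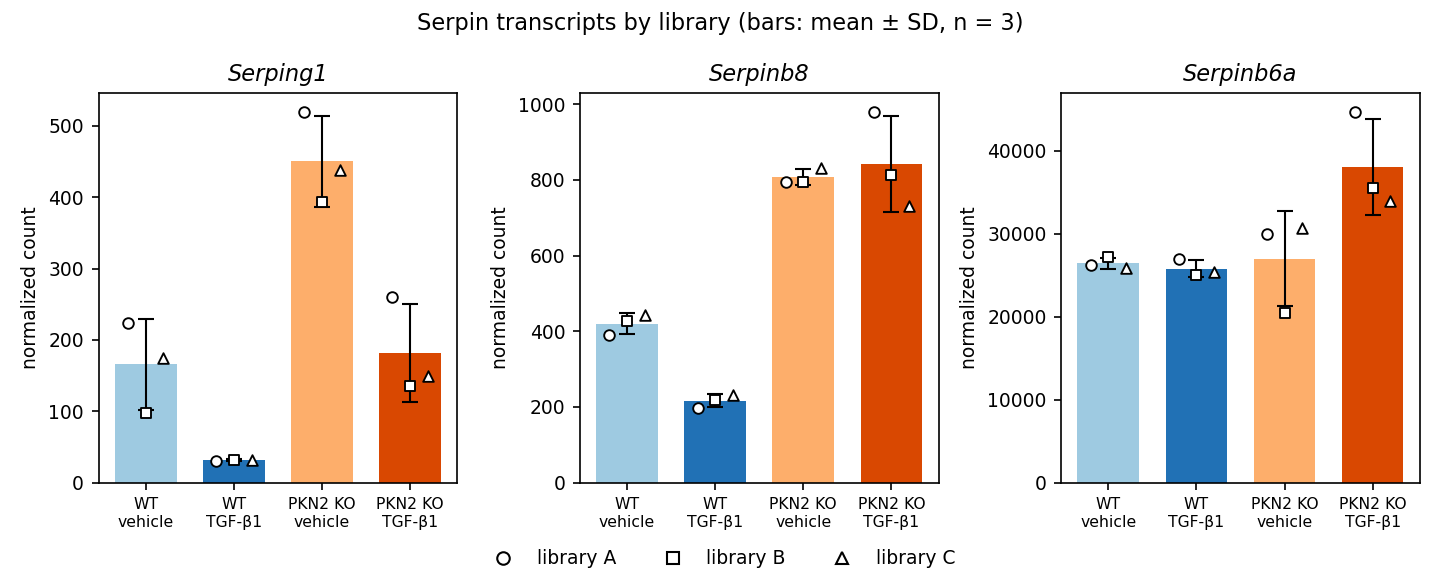
Normalized counts (y axis, linear, each gene on its own scale) of Serping1, Serpinb8 and Serpinb6a in the 4 groups (x axis); bars are group means, error bars SD (n = 3) and symbols the libraries A, B and C. Serping1 and Serpinb8 are lowest in WT TGF-β1 (means of 31.6 and 216.5), whereas Serpinb6a stands between 20418 and 30644 in every library except those of PKN2 KO TGF-β1.

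Serpinb8 (ENSMUSG00000026315; GRCm38 chromosome 1, 107590006 to 107610484, plus strand) was also higher in PKN2 KO PSCs under both treatments. With TGF-β1 it was lower in WT PSCs, whereas the PKN2 KO libraries overlapped between treatments. Its normalized counts in WT vehicle libraries A, B and C were 390.6, 427.0 and 443.7. In PKN2 KO vehicle they were 793.5, 795.6 and 830.9. After TGF-β1 they were 198.3, 219.7 and 231.6 in WT. In PKN2 KO with TGF-β1 they were 979.4, 813.4 and 731.1. The 6 PKN2 KO libraries overlapped across treatments and all lay above the 6 WT libraries, and within WT the vehicle libraries lay above those with TGF-β1.

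The means of Serpinb8 were 420.4 ± 27.1 (SD, n = 3) in WT vehicle and 216.5 ± 16.9 in WT TGF-β1. The PKN2 KO means were 806.7 ± 21.0 in vehicle and 841.3 ± 126.5 after TGF-β1. Each library held between 168 and 1126 counts of the gene. In rising order the groups were WT TGF-β1, WT vehicle, PKN2 KO vehicle and PKN2 KO TGF-β1, of which only the last pair did not differ beyond its spread (a gap of 34.6 against an SD of 126.5). With the authors' factors the spread in PKN2 KO TGF-β1, with a coefficient of variation of 15.0%, was wider than in the other 3 groups, where it lay between 2.61% and 7.80%. Under TMM it was the narrowest, at 9.52% against 9.70% in WT vehicle and 11.9% in WT TGF-β1, and PKN2 KO vehicle was the widest.

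Against WT, the log2 fold change of Serpinb8 was 0.94 (standard error 0.15, 95% interval 0.62 to 1.26) in PKN2 KO vehicle and 1.95 (standard error 0.15, 95% interval 1.63 to 2.26) in PKN2 KO TGF-β1, or 1.92-fold and 3.85-fold. In WT PSCs TGF-β1 changed it by -0.96 (95% interval -1.27 to -0.64), 1.94-fold lower. The value in PKN2 KO PSCs was 0.05, with a 95% interval from -0.27 to 0.37. The interaction was 1.01 (95% interval 0.56 to 1.45), place 8 of 238 from the highest, as was the genotype difference after TGF-β1. The interaction missed the threshold in 7 of the 12 fits that left out 1 library, without the B libraries, with the total count and without the variance trend.

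Promoter sequences from RefSeq are given for Serpinb8 and Serpinb6a, and that of Serping1 was not used here. Stretches of both are shown because one gene followed genotype in both treatments and the other did not. The Serpinb8 stretch, from 250 to 81 bases before the gene's start (GRCm38.p6 chr1:107589756-107589925, plus strand), ends there because the gene as RefSeq bounds it begins at 107589926, upstream of the start from which distances are counted here.
Serpinb8: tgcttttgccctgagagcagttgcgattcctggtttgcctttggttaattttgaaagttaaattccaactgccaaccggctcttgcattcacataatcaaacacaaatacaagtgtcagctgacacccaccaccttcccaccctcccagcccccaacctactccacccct
No motif searched for lies in it. The motifs were those of TEAD (GGAATG), SMAD (CAGACA), STAT (TTCNNNGAA) and AP-1 (TGANTCA), each read on both strands, and none of them overlaps another in these windows. Closer to the start, at chr1:107589973-107589999, Serpinb8 has an AP-1 match in capitals, 23 to 17 bases before the start and within RefSeq's outermost bounds of the gene.
Serpinb8 AP-1 match: gtgggaagtgTGAGTCAcagagtgttc
The letters of this motif occur in 6.75% of the 32851 RefSeq windows of 250 bases. The Serpinb8 window has 2 CG dinucleotides, against a median of 6.00 over all windows. A match of letters is a description and no evidence of binding.

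Serpinb6a (ENSMUSG00000060147; GRCm38 chromosome 13, 33917918 to 34002794, minus strand) differed from the other members. Its libraries overlapped between the genotypes in vehicle and between treatments in WT PSCs. With the authors' factors the 3 PKN2 KO TGF-β1 libraries stood above them. In WT vehicle libraries A, B and C its normalized counts were 26276, 27190 and 25898. In WT TGF-β1 they were 27013, 25064 and 25364. The PKN2 KO vehicle libraries held 29928, 20418 and 30644, and library B was the lowest of all 12. The PKN2 KO TGF-β1 libraries held 44676, 35467 and 33939, above every other library on this scale.

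Mean Serpinb6a was 26455 ± 665 (SD, n = 3) in WT vehicle and 25814 ± 1050 in WT TGF-β1. The PKN2 KO means were 26997 ± 5708 in vehicle and 38027 ± 5808 after TGF-β1. The first 3 groups did not differ beyond their spread, and PKN2 KO TGF-β1 exceeded PKN2 KO vehicle by 11030. At 22266 to 41251 counts per library, counting error alone gives a coefficient of variation of 0.548% to 0.613% per group, whereas that between libraries reached 21.1% in PKN2 KO vehicle. As a share of all panel counts Serpinb6a ranged from 16903 to 34193 per 1000000 counts, with 21640 to 23388 in PKN2 KO vehicle, a range narrower than that of the normalized counts. On this share PKN2 KO TGF-β1 A and C, at 25968 and 24477, lay below WT vehicle B at 27317. They stayed above all WT TGF-β1 and PKN2 KO vehicle libraries.

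The log2 fold change of Serpinb6a between PKN2 KO and WT was 0.01 (standard error 0.21, 95% interval -0.44 to 0.45) in vehicle and 0.55 (95% interval 0.11 to 0.99) after TGF-β1. With TGF-β1 it was -0.04 (95% interval -0.48 to 0.41) in WT PSCs and, in PKN2 KO PSCs, 0.51 (95% interval 0.06 to 0.95). Its interaction was 0.54 (95% interval -0.08 to 1.17). Without PKN2 KO vehicle B alone these last values were 0.32 and 0.35, and without all 4 B libraries both were 0.36. Without the B libraries the vehicle difference became 0.22, and the difference after TGF-β1 was 0.57 and then passed the threshold of an adjusted p under 0.05 that is used for all genes.

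The Serpinb6a stretch below, of 250 bases before the start (GRCm38.p6 chr13:34002795-34003044, minus strand), holds the letters of the TEAD motif on the reverse strand, 215 to 210 bases before the start, and those of the STAT motif, 77 to 69 bases before it. Both are in capitals.
Serpinb6a: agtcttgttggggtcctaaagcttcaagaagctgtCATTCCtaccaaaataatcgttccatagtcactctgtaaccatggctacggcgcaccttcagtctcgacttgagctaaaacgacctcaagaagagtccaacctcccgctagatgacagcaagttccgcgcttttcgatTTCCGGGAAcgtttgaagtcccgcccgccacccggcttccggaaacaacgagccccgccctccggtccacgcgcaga
The TEAD letters occur in 12.6% of all windows of this length and the STAT letters in 7.02%. The window has 20 CG dinucleotides and 54.4% G and C. A second annotated start of Serpinb6a has a window with 2 CG dinucleotides and none of the 4 motifs, and the panel does not tell the starts apart.

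Serpinb6a has near copies in the mouse genome. Over its 1197 coding bases, Gm5749 is 90.3%, Gm8436 90.2%, Serpinb6c 86.3%, Serpinb6b 85.7% and Serpinb6d 79.5% identical where they align. The position of the panel's primers is not given in the sources used here, so counts listed under Serpinb6a could include reads from these copies and its level is uncertain to that extent. The closest match to the 1122 coding bases of Serpinb8 was Serpinb6a, at 67.6%. No match was found for the 1512 coding bases of Serping1.

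Of the 3 members, Serping1 and Serpinb8 passed the threshold in both genotype comparisons, where 13.9% of the 238 genes tested passed in vehicle and 15.1% after TGF-β1. Both also passed for TGF-β1 in WT PSCs, where 50.8% of all genes did. Serping1 passed for TGF-β1 in PKN2 KO PSCs (48.7% of all genes) and Serpinb8 for the interaction (3.36% of all genes). Serpinb6a passed in no comparison with limma and the authors' factors. Its difference with TGF-β1 in PKN2 KO PSCs passed with TMM, with the median of ratios, with DESeq2 and without limma's variance trend. Since the members were chosen with these comparisons known, nothing is read from these counts.

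Overlap between groups was counted as well. The libraries of Serping1 and Serpinb8 were apart between genotypes in vehicle, as were those of 32.4% of the genes tested. All 3 members were apart between genotypes after TGF-β1 (28.2% of genes). Serping1 and Serpinb8 were apart between TGF-β1 and vehicle in WT PSCs (55.9% of genes), and Serping1 and Serpinb6a in PKN2 KO PSCs (52.9% of genes), where Serping1 was lower and Serpinb6a higher with TGF-β1.

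**Figure D2:**
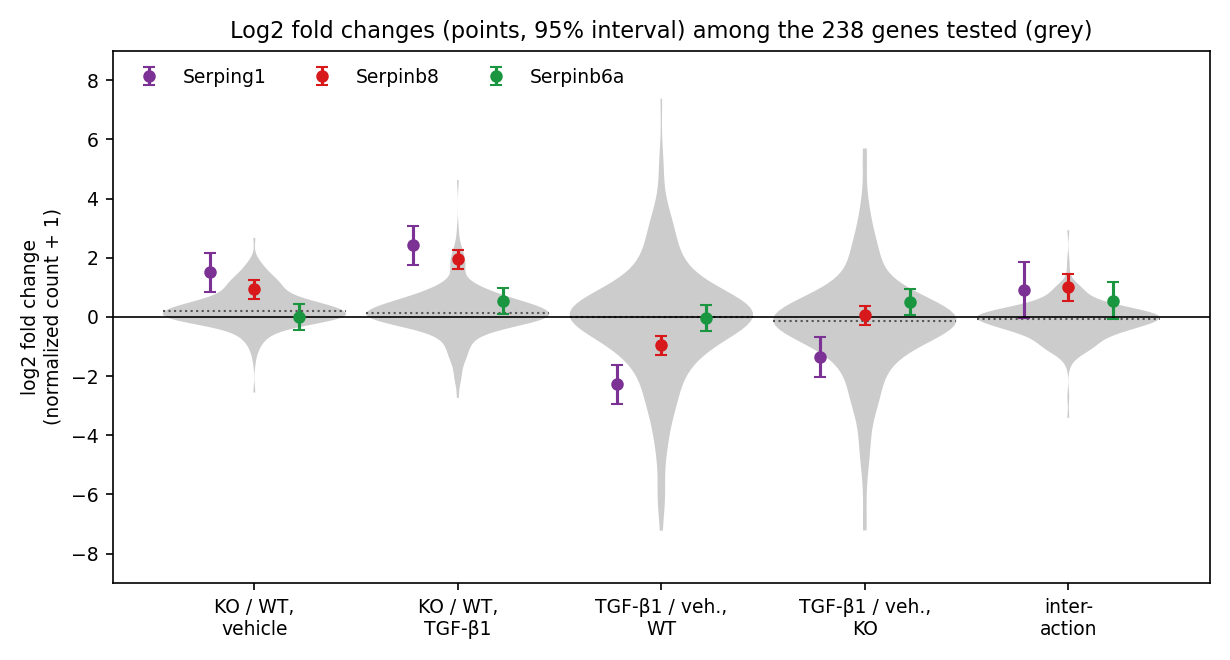
Log2 fold changes of normalized count + 1 (y axis) in the 5 comparisons (x axis); points are Serping1, Serpinb8 and Serpinb6a with 95% intervals, grey shapes the distribution of the 238 genes tested and dotted lines their median. Serping1 and Serpinb8 lie above zero for PKN2 KO against WT and Serpinb8 lies at 0.05 for TGF-β1 in PKN2 KO PSCs, whereas Serping1 stands at -1.36 there.

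The median gene was 0.21 higher on the log2 scale in PKN2 KO than in WT vehicle with the authors' factors, but 0.03 under TMM and -0.02 under the median of ratios over all genes. A scaling shifts all genes of a library alike, so it leaves a member's distance from that median nearly fixed. Serping1 and Serpinb8 lay above the median in vehicle and Serpinb6a below it. The vehicle difference of Serpinb6a itself turned from 0.01 to -0.18 with TMM, -0.23 with the median of ratios and -0.06 with the total count. After TGF-β1 the genotype difference of Serpinb6a lay between 0.42 and 0.55 under the 4 scalings. In limma without a block and with all 12 libraries it passed the threshold with TMM, the median of ratios and the total count, and not with the authors' factors. For Serping1 the genotype difference lay between 1.28 and 1.51 in vehicle and between 2.30 and 2.42 after TGF-β1, and for Serpinb8 between 0.71 and 0.94 and between 1.82 and 1.95.

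**Figure D3:**
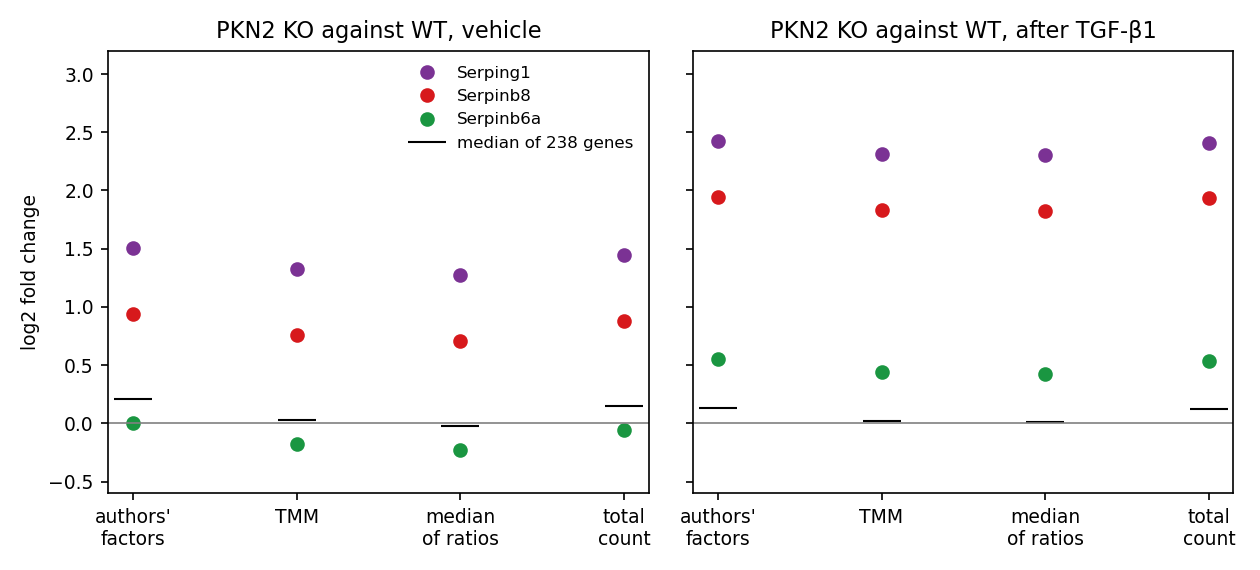
Log2 fold change between PKN2 KO and WT (y axis) of the 3 members and the median of the 238 genes (bars) under 4 ways of scaling the libraries (x axis), in vehicle (left) and after TGF-β1 (right). In vehicle all points shift down together with TMM and the median of ratios, and Serpinb6a crosses zero, from 0.01 to -0.23.

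Most of the variation of Serping1 and Serpinb8 lay between the 4 groups, 94.3% and 98.2% of the sum of squares on the log2 scale, against 66.2% for Serpinb6a. The replicate letters held 3.19% for Serping1, 11.9% for Serpinb6a and 0.0047% for Serpinb8. Serping1 and Serpinb8 varied together over the 12 libraries, with a Pearson correlation of 0.88. Once each group's mean was removed, the correlation was 0.32, so the likeness lay mainly in the group means. Serpinb6a correlated with Serpinb8 at 0.51 and with Serping1 at 0.21. These are descriptions over 12 libraries in 4 groups that share the libraries' factors.

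The panel genes most like Serping1 in pattern over the 12 libraries were Prelp (r = 0.97), a proteoglycan of the matrix, Lama5 (0.97), the laminin alpha 5 chain, and Mmp28 (0.95), a metalloproteinase. With the group means removed they correlated with it at 0.83, 0.80 and 0.69. These genes were picked by their correlation over the same 12 libraries, which includes this part. Libraries lettered A and those lettered B also deviated alike over all genes, so the values within groups are description only. The most opposite were Col11a1 (-0.95), a fibrillar collagen chain, Ccn2 (-0.81), a matricellular growth factor, and Col27a1 (-0.79), another fibrillar collagen chain. For Serpinb8 the most alike were Itgbl1 (0.94), Col15a1 (0.93) and Col4a1 (0.86), a chain of basement membrane collagen, and the most opposite Col11a1 (-0.85), Pcdh18 (-0.84) and Ccn2 (-0.75). With the group means removed, the 3 most like Serpinb8 correlated with it at only 0.23, 0.35 and 0.10. Of the most opposite genes, within groups Col11a1, Ccn2 and Col27a1 correlated with Serping1 at 0.16, -0.12 and -0.40, and Col11a1, Pcdh18 and Ccn2 with Serpinb8 at -0.12, -0.07 and 0.36.

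For Serpinb6a the 3 genes most alike were Ppil2 (0.88), Dpt (0.88), which encodes dermatopontin, and Dchs1 (0.87), a large cadherin. Within groups they correlated with it at 0.81, 0.62 and 0.71, again a description of genes picked over these same libraries. The most opposite were Adamts14 (-0.76), a procollagen peptidase, Thsd7a (-0.72) and Mmrn2 (-0.69), at 0.25, 0.04 and -0.47 within groups. None of the genes most like one member was among the 3 most like another.

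The other serpins of the panel were counted as a list. Of the 28 such genes reported here 9 were tested, and 19 were too low, 10 of these without a count in any library. In vehicle 1 of the 9 passed limma's test, Serpine2, which was higher in PKN2 KO PSCs, where 13.9% of all genes passed. After TGF-β1 2 of the 9 passed, Serpine2 and Serpinb1a, both higher, against 15.1% of all genes. For TGF-β1 against vehicle 2 of the 9 passed in WT and 3 in PKN2 KO PSCs, all lower, against 50.8% and 48.7% of all genes. The list's median log2 fold change was 0.46 in vehicle and 0.45 after TGF-β1, beside 0.21 and 0.13 over all 238 genes.

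Among the clade B serpins the panel divides by chromosome. On chromosome 1, between 106861173 and 107610484 (GRCm38), it lists 9 of them, and Serpinb8 was the only one of the 9 to reach a normalized count of 10 in 3 libraries. Of its neighbours there, 6 had no count in any library, Serpinb10 had 1 count in all 12 and Serpinb2 at most 9 in a library. The lack of a count does not show that a gene is silent. All 3 clade B genes listed on chromosome 13, Serpinb1a, Serpinb9 and Serpinb6a, were tested.

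Serpinb1a, an inhibitor of neutrophil elastase, was like Serping1 lowest in WT TGF-β1 and highest in PKN2 KO vehicle. Its normalized counts were 583.0, 281.1 and 473.3 in WT vehicle and 816.9, 637.3 and 861.6 in PKN2 KO vehicle. After TGF-β1 they were 44.8, 27.7 and 13.5 in WT and 113.5, 75.7 and 98.9 in PKN2 KO. PKN2 KO and WT libraries did not overlap in either treatment. Its log2 fold change of 0.84 in vehicle did not pass limma's test (standard error 0.37, adjusted p = 0.17), and that of 1.84 after TGF-β1 did (standard error 0.37, adjusted p = 0.0025 from limma). It fell by 4.0 in WT and by 3.0 in PKN2 KO PSCs with TGF-β1 (limma adjusted p = 3.83e-07 and 9.01e-06). Its interaction of 1.0 missed the threshold (adjusted p = 0.54 from limma).

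Serpinb9, an inhibitor of granzyme B, held 365.8, 206.8 and 254.4 in WT vehicle and 216.0, 130.4 and 123.9 in WT TGF-β1. It held 328.2, 201.4 and 315.8 in PKN2 KO vehicle and 292.7, 164.2 and 202.6 in PKN2 KO TGF-β1. These groups overlap in each comparison. Its fall of 0.82 with TGF-β1 in WT PSCs passed limma's test (adjusted p = 0.033), and it no longer passed in 4 of the 6 fits that left out 1 of the compared libraries (WT vehicle A or C, WT TGF-β1 B or C) and without the variance trend. Its value in PKN2 KO PSCs (-0.36) did not pass in the main limma fit. It passed with the total count (-0.56) and, with the authors' factors, with the replicate letter as a block. Between genotypes its log2 fold changes were 0.04 in vehicle and 0.49 after TGF-β1, and neither passed (adjusted p = 0.94 and 0.32 from limma).

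Serpine2, or protease nexin 1, an inhibitor of thrombin and urokinase, had means of 22.2 ± 14.5 in WT vehicle and 8.12 ± 3.79 in WT TGF-β1. The PKN2 KO means were 139.8 ± 63.8 in vehicle and 43.3 ± 27.6 after TGF-β1. Its genotype difference was 2.67 in vehicle (adjusted p = 0.0041 from limma) and 2.22 after TGF-β1 (adjusted p = 0.011 from limma), the latter lost without WT TGF-β1 C or PKN2 KO TGF-β1 A. In PKN2 KO PSCs TGF-β1 lowered it by 1.74 (limma adjusted p = 0.015, lost in 3 of 6 fits, those without PKN2 KO vehicle A or PKN2 KO TGF-β1 B or C) and Serpini1, or neuroserpin, by 1.19 (limma adjusted p = 0.010, lost without PKN2 KO vehicle C). In WT PSCs the values with TGF-β1 were -1.28 for Serpine2 and -0.85 for Serpini1, just past the threshold (adjusted p = 0.061 and 0.053 from limma). Both of these passed with TMM, the median of ratios, the total count and the replicate letter as a block. Their interactions of -0.46 and -0.34 did not pass (adjusted p = 0.89 and 0.89 from limma). Serpine2 has at most 178 counts in a library and Serpini1 at most 43.

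**Figure D4:**
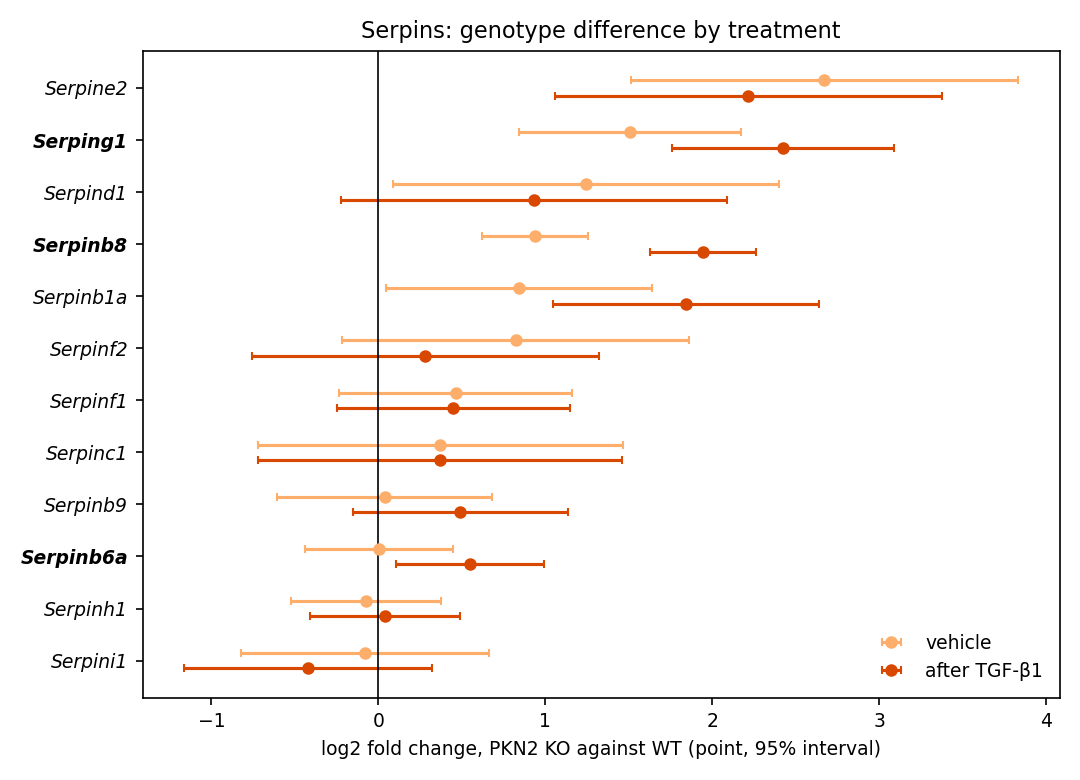
Log2 fold change between PKN2 KO and WT (x axis) of the 12 serpins shown (y axis, the 3 members in bold), in vehicle and after TGF-β1; points are limma estimates from n = 3 libraries a group and bars 95% intervals. Serpine2 and Serping1 lie farthest to the right in vehicle, at 2.67 and 1.51.

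Of the 4 panel genes in the list of serine proteases and complement components, only Plau, which encodes the protease urokinase, was high enough to be tested. With TGF-β1 it fell by 1.02 in WT and by 1.22 in PKN2 KO PSCs (limma adjusted p = 0.0013 and 4.1e-04). Between genotypes its log2 fold change was -0.25 in vehicle and -0.45 after TGF-β1, and neither passed (adjusted p = 0.55 and 0.20 from limma). The difference after TGF-β1 did pass when the libraries were scaled by TMM (-0.56), the median of ratios (-0.57) or the total count (-0.46). Cma1, Habp2 and Hc, the gene of complement component C5, were not tested.

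Markers of other cells were low, and their sums differed between treatments. The 5 leukocyte markers summed to between 16.3 and 31.8 in the vehicle libraries and between 4.30 and 10.99 after TGF-β1, and all but Itgb2 were under 10 in every library, with Itgal at 0. The 5 endothelial markers summed to between 32.7 and 39.5 in WT TGF-β1 and between 9.44 and 24.1 elsewhere. Their part in the fall of Serping1 and Serpinb8 with TGF-β1 was not tested. Of the fibroblast markers, Dcn went from a mean of 21.5 in WT vehicle to 0.977 in WT TGF-β1, while Col1a1 went from 149555 to 207038.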

How the data were processed

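Libraries were made with the QIAseq targeted panel for mouse ECM and adhesion genes, pooled as a 12-plex and sequenced on a MiSeq. The deposited files hold a raw count for every gene and, in 2 tables, normalized counts, a signal for which the authors divided the counts of a library by 1 factor from reference genes. The vehicle libraries are in one of these and the TGF-β1 libraries in the other, so every comparison of TGF-β1 against vehicle runs across the 2. Whether the factors were derived for both together is not given in the sources used here. The submitters' processing notes name STAR, DESeq2 1.32 and mm10. Of the raw columns, 6 carry a repeated name and were left out. All 12 libraries were read from the normalized tables. Divided by the library's step, 5040 of 5040 normalized values were whole (within 0.1), and 2520 of 2520 were equal to the deposited raw counts. A check on low values alone held too few of them to show this, so count tests are alternatives only.

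Genes were tested with limma 3.58.1 (R 4.3.3; linear model with 1 mean per group, contrasts, moderated with a trend and robustly) on log2(normalized count + 1). It covered the 238 genes that reached 10 in 3 or more libraries, with Benjamini-Hochberg adjustment at 0.05. The fit was tested on simulated counts with a fixed dispersion, in which libraries varied independently. That test therefore does not cover a likeness between same-lettered libraries. The members, gene lists and motifs were chosen with earlier results of these data known. Named were the members, the other serpins past the threshold or in clade B, and for each member the 3 genes of highest and lowest correlation. Some panel genes are not reported here. They stayed in the fit over all genes and were left out of the gene lists, marker lists and correlations. Serping1 and Serpinb8 also belong to a gene set that the study chose. Its genes differed in these PSCs and also concurred with expression in the study's orthotopic tumours. As these libraries took part in that choice, the set is not independent evidence for them.

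Alternatives were TMM, the median of ratios, the total count, edgeR 4.0.16 and DESeq2 1.42.0 on the recovered counts, no filter, at least 10 in every library, pseudocounts of 0.5 and 5, no variance trend, the replicate letter as a block, only the 6 libraries compared, and each library left out. Leaving out all B libraries was added after seeing the data. Same-lettered libraries deviated from their group means with a correlation of 0.39 on average over 18 pairs, from -0.23 to 0.70, and 13 of 18 were over 0.1. Pairs lettered A (0.35 to 0.70) and B (0.60 to 0.68) deviated alike, and those lettered C (-0.23 to 0.14) did not. The main fit has no term for the letter and leaves this likeness in its error. A gene that missed the threshold there may therefore pass with the replicate letter as a block. Sequences are from RefSeq GRCm38.p6 (2 of the 3 members matched) and gene coordinates from GENCODE on GRCm38, the assembly of mm10. Coding sequences were compared with BLAST 2.17.0.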

Additional observations from a re-analysis of the deposited data

Results flagged for a closer look

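The effect of TGF-β1 differed between the genotypes for Serpinb8, with an interaction of 1.01 on the log2 scale, where the 3 WT TGF-β1 libraries all lay below the WT vehicle libraries and the PKN2 KO libraries overlapped. This gene was chosen with the interaction known. It passed the threshold in 10 of 12 alternatives, not with the total count or without the variance trend, and in 5 of the 12 fits that left out 1 library, with values between 0.89 and 1.10. The fits that lost it were those without WT vehicle B or C, any PKN2 KO vehicle library, or WT TGF-β1 A or C, and it was also lost without the 4 B libraries.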

How the results depend on the processing

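No member's value that passed the threshold changed sign. Of those that did not pass, the vehicle difference of Serpinb6a turned negative under TMM, the median of ratios and the total count. It was also negative without WT vehicle C, PKN2 KO vehicle A or PKN2 KO vehicle C. The value of Serpinb8 with TGF-β1 in PKN2 KO turned negative with the total count and without PKN2 KO TGF-β1 A. That of Serpinb6a with TGF-β1 in WT turned positive, at 0.005, without the B libraries. The calls of Serping1 and Serpinb8 between genotypes held in 13 of 13 alternatives and in 6 of 6 fits with 1 library left out, in vehicle and after TGF-β1. Both genes were chosen with these comparisons known, so this describes how the calls depend on the processing and is no evidence for the differences. Serpinb6a after TGF-β1 passed in 6 of 13 alternatives and in none of the 6 left-out fits of limma. In vehicle the difference of Serpinb8 was 0.76 under TMM and 0.71 under the median of ratios, and that of Serpinb6a was -0.23 with the median of ratios and 0.22 without the B libraries. With the total count, TGF-β1 gave -0.29 for Serpinb6a and -1.20 for Serpinb8 in WT and -0.15 for Serpinb8 in PKN2 KO PSCs. The interaction of Serping1 was 1.35 without the B libraries.

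Genes called in vehicle were 26 higher and 7 lower, and 20 and 13 under TMM, 19 and 20 under the median of ratios. After TGF-β1 they were 21 and 15, and 27 and 29 under TMM (56 in all), 25 and 30 under the median of ratios (55) and 42 and 23 with the total count (65). For TGF-β1 in WT they were 57 and 64, and 54 and 95 with the total count. For the interaction they were 2 and 6, and 1 and 7 with the total count, 4 in all without the variance trend and 1 without the B libraries. The other serpins called for TGF-β1 in WT were 2, and 4 with TMM, 4 with the median of ratios and 4 with the total count. With at least 10 in every library, limma called 0 of the 4 other serpins left in vehicle (1 at an unadjusted p under 0.05; edgeR and DESeq2 on all genes called Serpine2), 1 after TGF-β1 and 1 for TGF-β1 in PKN2 KO. With only the 6 libraries compared it called 2 in vehicle. For the interaction no other serpin was called by limma, edgeR or DESeq2 (0 at an unadjusted p under 0.05 by each with all 12 libraries), except 1, Serpinb1a, with the replicate block. With 1 library left out, limma called 18 to 35 genes in vehicle, and for the interaction 0 to 11 genes (15 to 28 unadjusted). Other serpins called were then 1 to 2 after TGF-β1 and 1 to 2 for TGF-β1 in WT. The cause of these shifts was not tested.

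With the replicate block the genes called were 87 in vehicle, 101 after TGF-β1 and 42 for the interaction, and 71, 90 and 17 with the block and no variance trend. The other serpins called with the replicate block were 4 in vehicle, 5 after TGF-β1, 5 for TGF-β1 in WT, 6 in PKN2 KO and 1 for the interaction, and with the block and no trend 3, 5, 5 and 5 in the first 4 of these. Serpinb9 and Plau passed between genotypes after TGF-β1 under both blocked fits. Serpinb6a passed after TGF-β1 and with TGF-β1 in PKN2 KO under both blocked fits, and the interactions of Serping1 and Serpinb6a passed with the block alone.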
